A study of Arabidopsis thaliana with 6 samples.

Results

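The genes described here are the glutathione transferases of the tau class (GSTU1 to GSTU28, 28 genes) and of the phi class (GSTF2 to GSTF14, 13 genes) of Arabidopsis thaliana. They were taken by locus identifier, and all 41 were found among the 36917 genes listed in the deposited count files. The set was chosen with earlier results of these data known. In the RefSeq annotation 39 of them carry these symbols, while GSTU17 is listed there as ERD9 and GSTF13 as ATGSTF13.

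RNA-seq libraries of the fbn6-1 mutant (replicates 1, 2 and 3) were compared with libraries of the Col-0 wild type (replicates 2, 3 and 4). The mutant carries a T-DNA insertion, line GK_159E10, in the Col-0 ecotype and is the only line used, so every difference is that of 1 allele. Its target, FBN6, encodes FIBRILLIN6, a member of a family of plastid lipid-associated proteins. Both genotypes were sampled at 3 weeks of age after growth on fertilised potting soil in a greenhouse under long days (16 h light, 8 h dark, fluence on the leaves near 120 µmol photons m-2 s-1), and no stress or chemical treatment is named.

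Glutathione transferases join the tripeptide glutathione to electrophilic carbon, nitrogen or sulfur atoms, which makes toxic or reactive compounds soluble and marks them for transport into the vacuole. The tau and phi classes are the large classes of plants; many of their genes are known for rapid induction by herbicides, oxidants or pathogens, and others act in ordinary metabolism. In Arabidopsis one such task is the synthesis of glucosinolates, sulfur-containing defence compounds of the cabbage family, where an activated aldoxime takes its sulfur from glutathione. GSTU20 and GSTF11 are assigned to that step for methionine-derived (aliphatic) glucosinolates, and GSTF9 and GSTF10 are candidates for the tryptophan-derived (indolic) ones.

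FBN6 (AT5G19940) had 7, 3 and 3 counts in the fbn6-1 libraries and 1845, 1557 and 2201 in the wild-type libraries, which matches the labels. The libraries held between 8668956 and 12287197 counts, of which between 3257770 and 4955128 came from nuclear genes; plastid and mitochondrial genes took the rest. Wild-type replicate 3 stood apart from the other wild-type libraries: the chi-square per gene against them was 15.7 and 17.2, where all other pairs of replicates gave between 5.21 and 6.43. The label names plants and no organ; 8 root markers summed to between 1.02 and 1.17 CPM (counts per 1000000 of the scaled library size) in fbn6-1 and between 0.105 and 0.359 in wild type, with 3 of them at 0 in every library. The root marker with most of these counts was BGLU23, a root beta-glucosidase, with 13, 10 and 6 counts in fbn6-1 and 0, 2 and 1 in wild type. The 5 flower markers summed to between 0.745 and 0.909 CPM in fbn6-1 and between 0.479 and 0.838 in wild type (1 of 5 at 0), and the 6 green leaf markers to between 20310 and 21290 in fbn6-1 and between 23360 and 24200 in wild type (none at 0, with GLK1 called lower). The part of these differences in the results on the transferases was not tested; in such samples, fewer cells of a type and less RNA per cell cannot be told apart.

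Several of these genes are recent copies of one another, which bears on how their counts can be read, so the coding sequences that matter most for the results are shown first. Identity was taken over the whole coding sequence, as a percentage of the alignment length with gap positions included. Pairs of tau genes had a median of 55.0% (range 44.6% to 85.5%, 378 pairs). Pairs of phi genes had a median of 52.2% (up to 94.5%, 78 pairs), against 46.9% between the classes (364 pairs). GSTU19 and GSTU20, neighbours on chromosome 1, were 76.2% identical. Their first 120 coding bases are printed here from RefSeq TAIR10.1 (minus strand, chr1:29487700-29487819 and chr1:29485085-29485204), with the 24 positions at which the pair differs in capitals.
GSTU19: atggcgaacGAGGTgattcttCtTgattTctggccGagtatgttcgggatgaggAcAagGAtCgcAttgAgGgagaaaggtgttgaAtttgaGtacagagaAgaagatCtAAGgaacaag
GSTU20: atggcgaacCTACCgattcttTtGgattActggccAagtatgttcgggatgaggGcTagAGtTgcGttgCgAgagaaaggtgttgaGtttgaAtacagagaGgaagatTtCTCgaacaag
GSTF9 and GSTF10, neighbours on chromosome 2 (plus strand, chr2:13139132-13139251 and chr2:13141490-13141609), were 77.6% identical and differed at 34 of these first 120 positions.
GSTF9: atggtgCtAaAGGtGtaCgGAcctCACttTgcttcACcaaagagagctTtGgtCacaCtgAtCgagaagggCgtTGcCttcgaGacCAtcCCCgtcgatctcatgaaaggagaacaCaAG
GSTF10: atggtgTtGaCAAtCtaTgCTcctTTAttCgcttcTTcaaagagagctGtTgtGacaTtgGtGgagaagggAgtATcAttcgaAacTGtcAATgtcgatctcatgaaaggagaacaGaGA
GSTF2 on chromosome 4 and GSTF3 on chromosome 2 were the most alike of the 41 genes, at 94.5% identity. They differed at only 4 of the first 120 positions (minus strand, chr4:1111412-1111531 and chr2:851987-852106).
GSTF2: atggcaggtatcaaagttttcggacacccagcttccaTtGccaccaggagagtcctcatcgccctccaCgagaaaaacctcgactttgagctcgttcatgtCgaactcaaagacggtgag
GSTF3: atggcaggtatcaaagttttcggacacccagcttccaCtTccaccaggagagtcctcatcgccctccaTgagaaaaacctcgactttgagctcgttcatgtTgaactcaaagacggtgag
GSTF6 and GSTF7, neighbours on chromosome 1, followed at 94.3%, with 1 identical run of 116 bases. Reads in such runs fit both genes, and the labels do not say how they were counted; values of GSTF2, GSTF3, GSTF6 and GSTF7 are uncertain for that reason.

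The filter on low counts left 16584 of the 36917 listed genes for testing, and a similar share of this family. Of the 41 genes, 19 passed the filter on low counts: 11 of 28 tau genes (GSTU5, GSTU7, GSTU10, GSTU13, GSTU16 to GSTU20, GSTU27 and GSTU28) and 8 of 13 phi genes (GSTF2, GSTF4 and GSTF6 to GSTF11). Of the 22 others, GSTU14, GSTU15 and GSTU21 had 0 counts in all 6 libraries, which allows a level of up to 0.0495 CPM (3 counts of the 60665697 in all libraries together, counting error only). A further 13 had between 1 and 5 counts over the 6 libraries. They include GSTU24 and GSTU25, both known for strong induction by xenobiotics, with 2 counts each, and GSTF3 with 2. The remaining 6 were GSTU1 with 53 counts, GSTU26 with 46, GSTU6 with 45, GSTF12 with 30, GSTU23 with 19 and GSTF5 with 6.

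Levels between genes were compared as CPM per kilobase of annotated exon. GSTF9 had the highest level in both genotypes, 69.4 ± 10.7 CPM per kilobase in fbn6-1 and 100.3 ± 5.66 in wild type (SD, n = 3 each). In fbn6-1 it was followed by GSTU19 (57.7), GSTU5 (48.1), GSTU17 (45.0), GSTU20 (44.0), GSTF8 (42.9), GSTF10 (30.3) and GSTU18 (16.0). In wild type the order after GSTF9 was GSTU20 (79.4), GSTU19 (60.9), GSTU17 (53.7), GSTU5 (43.3), GSTF8 (34.8), GSTF10 (26.3) and GSTU18 (18.8). GSTU20 was thus in 5th place in fbn6-1 and in 2nd place in wild type. Among these genes the library ranges of neighbours in the fbn6-1 order overlapped except between GSTU19 and GSTU5, between GSTF8 and GSTF10, and between GSTF10 and GSTU18. In wild type every neighbouring pair from GSTF9 down to GSTF10 was apart, and GSTF10 overlapped with GSTU18. The annotated exons of GSTF8 add up to 2395 bases, against 1147 for GSTU20, so its place in the order depends on the ends given to that gene.

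**Figure D1:**
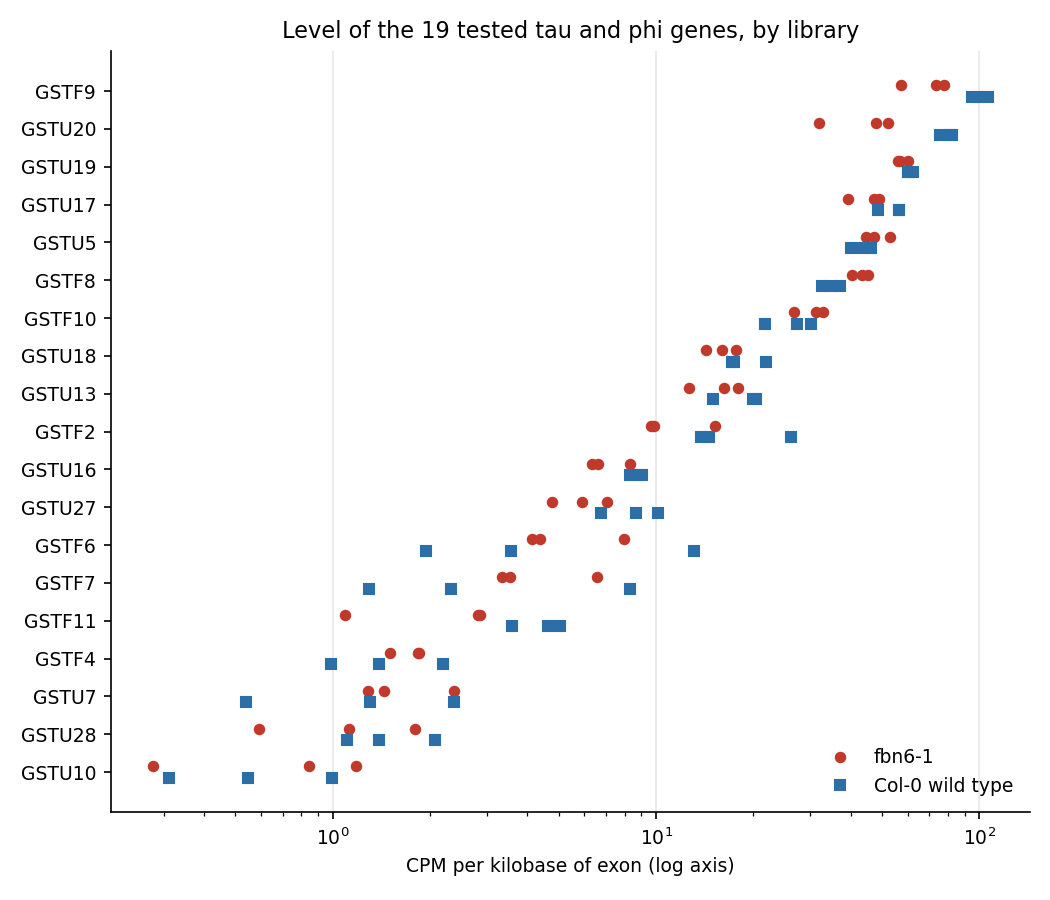
Level of the 19 tested tau and phi genes in each library, as CPM per kilobase of annotated exon on a log axis; red circles are fbn6-1 libraries and blue squares Col-0 wild-type libraries (n = 3 each). The fbn6-1 circles of GSTF9, GSTU20, GSTU16 and GSTF11 lie to the left of all wild-type squares, and those of GSTF8 to the right.

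The family is strongly clustered in the genome. With at most 2 other genes between neighbours, 8 arrays held 27 of the 41 genes, and in some of them 1 gene carried nearly all of the signal. The array of 7 tau genes on chromosome 2 (GSTU7, GSTU6, GSTU5, GSTU4, GSTU3, GSTU2 and GSTU1) was the longest, and GSTU5 made up 93.8% of its summed level per kilobase over all libraries. GSTU26 made up 92.7% of its array with GSTU24 and GSTU25 at a level of only 0.741 CPM per kilobase, GSTU13 made up 100% of its pair with GSTU14, GSTF9 75.0% of its pair with GSTF10, and GSTU17 73.9% of its pair with GSTU18. In the array of 5 (GSTU23 to GSTU19) the level was split between GSTU20 (50.8% of the sum) and GSTU19, while GSTU21 to GSTU23 stayed near 0. In the phi array of 4 (GSTF7 to GSTF4), GSTF6 made up 49.6% of the sum, with GSTF7 second. GSTU11 and GSTU12, the remaining pair, had only 0.029 and 0.015 CPM per kilobase.

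**Figure D2:**
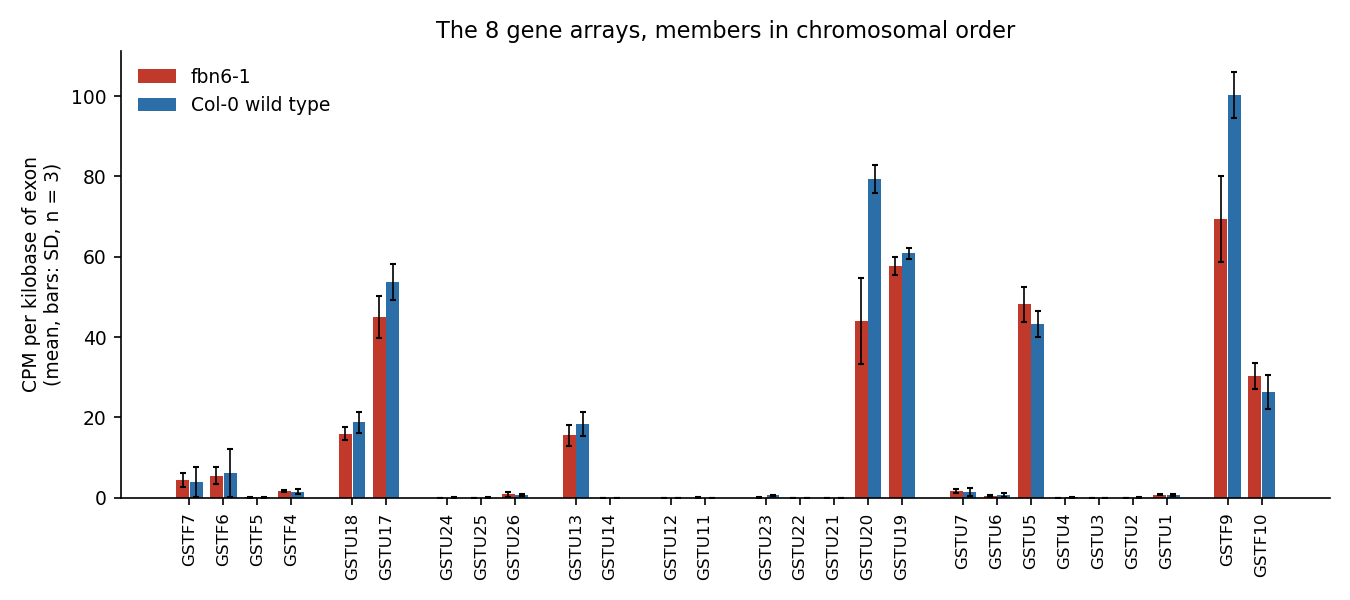
Mean CPM per kilobase of exon (bars, with SD over 3 libraries) of the 27 genes in the 8 arrays, in chromosomal order and with a gap between arrays; red is fbn6-1 and blue is Col-0 wild type. Most arrays hold 1 or 2 genes with visible bars, and GSTU20 and GSTF9 show the widest gaps between the genotypes.

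Between the genotypes, 2 of the 19 tested genes were called with edgeR's quasi-likelihood test at an adjusted p under 0.05 over all 16584 tested genes, and both, GSTU20 and GSTF9, were lower in fbn6-1. Of all tested genes 3.82% were called, 2.34% as lower and 1.48% as higher in fbn6-1. None of the 19 was called higher, and DESeq2 and limma-voom also called 0 higher. At an unadjusted p under 0.05 with edgeR there were 7 of the 19, as against 17.8% of all tested genes. Of these, GSTF8 was higher in fbn6-1, and GSTU17, GSTU20, GSTU27, GSTF2, GSTF9 and GSTF11 were lower. The median log2 fold change of the 19 genes was -0.23, with 12 below 0 and 7 above, beside -0.004 for all tested genes; it was -0.24 for the tau genes and 0.02 for the phi genes. The libraries of the genotypes did not overlap for 5 of the 19 (GSTF8 above, GSTU16, GSTU20, GSTF9 and GSTF11 below wild type), and for 23.0% of all tested genes.

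**Figure D3:**
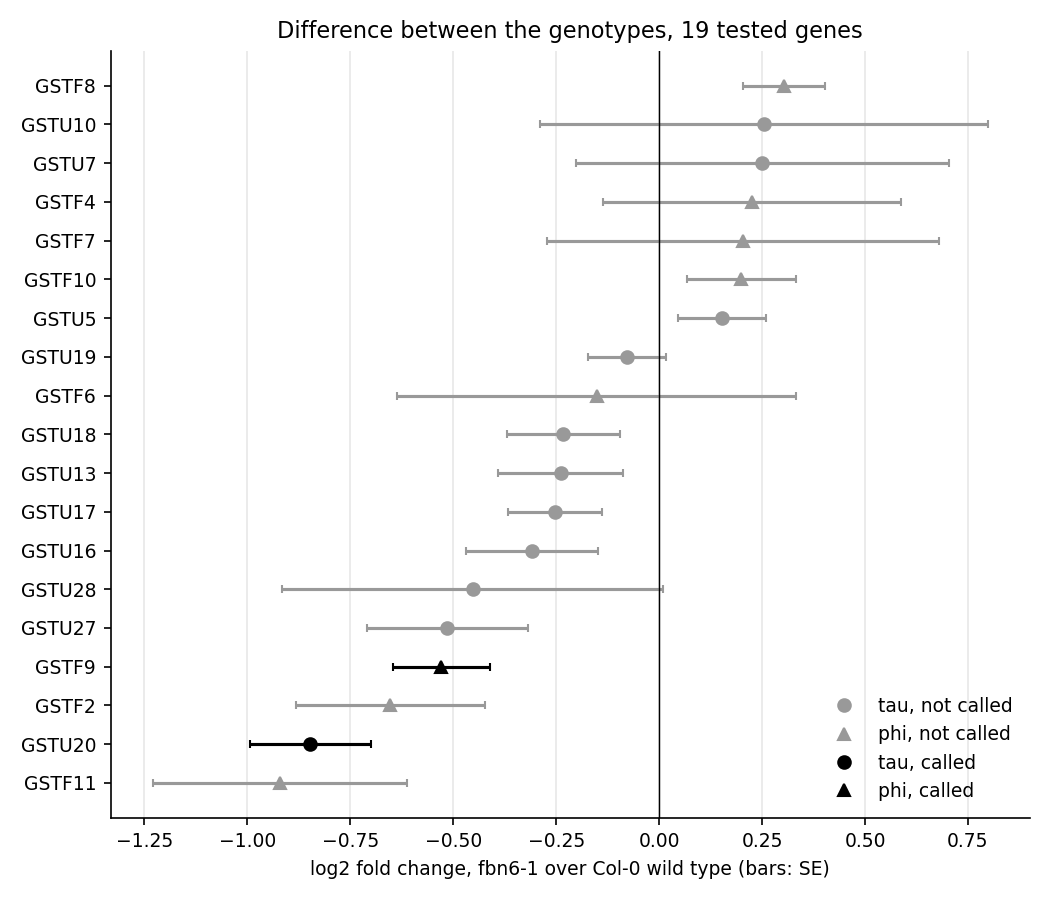
Log2 fold change of the 19 tested genes, fbn6-1 over Col-0 wild type, with bars for the standard error (SE); circles are tau and triangles phi genes, and black marks genes called at an adjusted p under 0.05. GSTU20 (-0.85) and GSTF9 (-0.53) are the called genes; GSTF11 (-0.92) and GSTF2 (-0.65) are as far to the left with wider bars.

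GSTU20 (AT1G78370), also known as FIP1 for its binding to the jasmonate-conjugating enzyme JAR1, was the gene with the clearest difference. Its level was 54.8, 59.9 and 36.7 CPM in fbn6-1 replicates 1, 2 and 3, against 92.2, 94.4 and 86.5 CPM in wild-type replicates 2, 3 and 4. All 3 mutant libraries lay below all 3 wild-type libraries, with mutant replicate 3 the lowest. GSTU20 fell by 0.85 on the log2 scale (SE 0.15, adjusted p = 0.0049 with edgeR), at 50.5 ± 12.2 CPM in fbn6-1 and 91.0 ± 4.08 CPM in wild type (SD, n = 3 each). It was called under all 15 alternatives, with log2 fold changes between -0.98 and -0.66.

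GSTF9 (AT2G30860), the phi gene with the highest level per kilobase, had 90.7, 95.5 and 70.7 CPM in fbn6-1, against 131, 123 and 117 CPM in wild type. Again the groups did not overlap and mutant replicate 3 was the lowest library. GSTF9 fell by 0.53 on the log2 scale (SE 0.12, adjusted p = 0.022 with edgeR), at 85.6 ± 13.2 CPM in fbn6-1 and 123.7 ± 6.98 CPM in wild type. At the same threshold the call was lost, among other settings, by leaving out fbn6-1 replicate 1 (adjusted p = 0.068), fbn6-1 replicate 3 (0.088) or wild-type replicate 2 (0.088), and with scaling by library size alone (0.093), each time in the same direction.

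The third gene of this set assigned to glucosinolate synthesis, GSTF11 (AT3G03190), was expressed at a low level. It had 2.63, 2.66 and 1.02 CPM in fbn6-1, against 4.72, 4.31 and 3.34 CPM in wild type. The groups did not overlap, with 35, 25 and 9 counts in fbn6-1 against 45, 36 and 38 in wild type. The difference was not called (log2 fold change -0.92, SE 0.31, adjusted p = 0.12 with edgeR). GSTF11 was called in the edgeR fit without the low-count filter (adjusted p = 0.027), at the same log2 fold change of -0.92, so that call does not show a larger difference. GSTF11 lies over 1096 bases within the annotated span of NAC045 (AT3G03200), a transcription factor gene on the opposite strand that had 46, 26 and 11 counts in fbn6-1 and 48, 40 and 39 in wild type. Whether counting was stranded is not stated in the labels or file headers, so reads of this overlapping pair cannot be told apart.

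GSTF10 (AT2G30870, also ERD13), the neighbour of GSTF9, had 30.3, 35.2 and 37.3 CPM in fbn6-1 and 24.5, 34.0 and 30.8 CPM in wild type. The groups overlapped and the difference was not called (log2 fold change 0.20, SE 0.13, adjusted p = 0.48 with edgeR). GSTU13 (AT1G27130), known for a part in the turnover of indole glucosinolates during immunity, had between 16.2 and 23.0 CPM in fbn6-1 and between 19.3 and 26.1 CPM in wild type (log2 fold change -0.24, SE 0.15, adjusted p = 0.45).

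The neighbouring genes could also be compared within each library, where depth and scaling cancel. The ratio of GSTU20 to GSTU19 raw counts was 0.813, 0.940 and 0.586 in fbn6-1 and 1.32, 1.40 and 1.29 in wild type, so that GSTU19 had more counts than GSTU20 in every mutant library and fewer in every wild-type library. The ratio of GSTF9 to GSTF10 was 3.00, 2.71 and 1.90 in fbn6-1 and 5.34, 3.61 and 3.81 in wild type. That of GSTF6 to GSTF7 was 1.21, 1.21 and 1.19 in fbn6-1 and 1.47, 1.55 and 1.5 in wild type, from few counts and near-identical sequences. These 3 ratios did not overlap between the genotypes. Each gave p = 0.1 in a two-sided exact permutation test, the smallest that 3 against 3 libraries allow (0.13 after adjustment over the 4 pairs compared). The share of other neighbouring pairs without overlap was not counted. Of all tested genes taken singly, 23.0% did not overlap. GSTU20 and GSTF9 are the called genes, so their ratios are not separate evidence, and GSTF6 and GSTF7 were picked out after their values were seen. The ratio of GSTU17 to GSTU18 was 3.36, 3.14 and 3.13 in fbn6-1 and 2.53, 3.68 and 3.73 in wild type, which overlap (exact permutation p = 1.0).

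**Figure D4:**
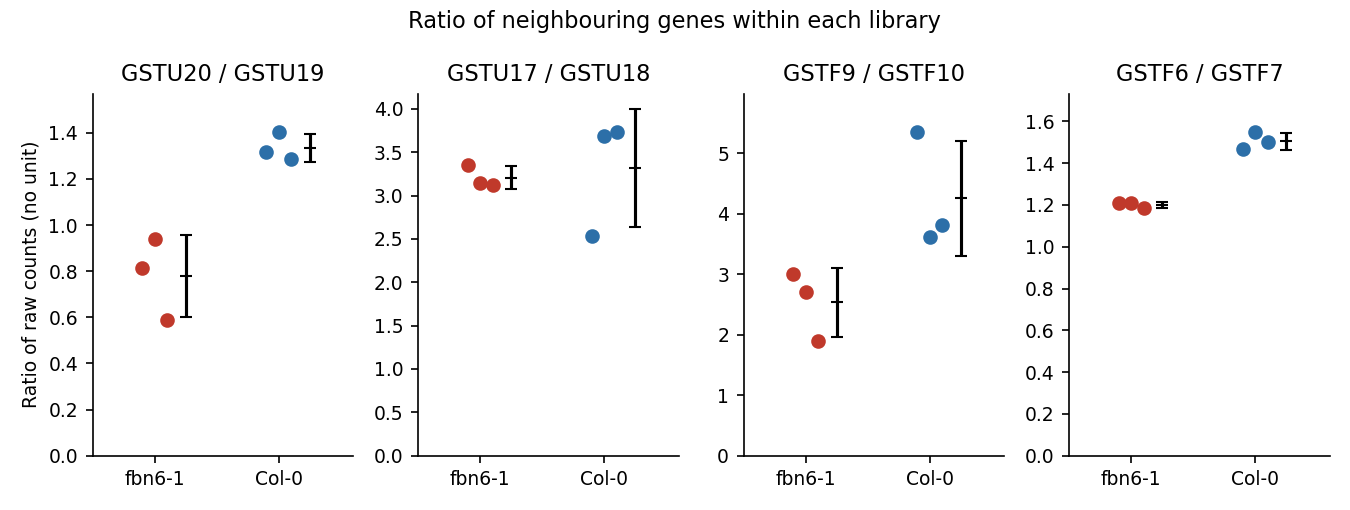
Ratio of raw counts of 4 pairs of neighbouring genes in each library (points, no unit, each axis from 0) with the mean and SD of 3 libraries beside them; red is fbn6-1 and blue is Col-0 wild type. GSTU20/GSTU19, GSTF9/GSTF10 and GSTF6/GSTF7 are lower in all fbn6-1 libraries, and GSTU17/GSTU18 overlaps.

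The other highly expressed tau genes differed little. GSTU19 (AT1G78380), the main tau enzyme with activity on xenobiotics, had 67.4, 63.8 and 62.6 CPM in fbn6-1 and 70.0, 67.3 and 67.2 CPM in wild type. The groups met at their edges (log2 fold change -0.08, SE 0.10, adjusted p = 0.74), and the sign turned to 0.06 when only library size was used for scaling. GSTU5 (AT2G29450), an auxin-inducible gene, had 59.9, 67.1 and 56.5 CPM in fbn6-1 and 55.2, 50.8 and 58.8 CPM in wild type, again overlapping (log2 fold change 0.15, SE 0.11, adjusted p = 0.50).

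GSTU17 (AT1G10370), first found as the early dehydration-induced ERD9, had 54.7, 56.5 and 45.4 CPM in fbn6-1 and 56.3, 65.3 and 65.2 CPM in wild type. The mutant values were mostly the lower ones, but the groups overlapped and the gene was not called (log2 fold change -0.25, SE 0.11, adjusted p = 0.26). Its neighbour GSTU18 (AT1G10360) had 16.3, 18.0 and 14.5 CPM in fbn6-1 and 22.2, 17.7 and 17.5 CPM in wild type (log2 fold change -0.23, SE 0.14, adjusted p = 0.42). The annotated spans of this pair share 71 bases on the same strand.

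Among the less expressed tau genes, GSTU27 (AT3G43800) had 7.36, 6.17 and 5.0 CPM in fbn6-1 and 10.6, 7.07 and 9.05 CPM in wild type. The overlap came from wild-type replicate 3, and the log2 fold change of -0.51 (SE 0.20, adjusted p = 0.18 with edgeR) became -0.64 with an adjusted p of 0.046 without that library. GSTU16 (AT1G59700) had 7.13, 7.45 and 9.315 CPM in fbn6-1 and 9.96, 10.2 and 9.318 CPM in wild type, so that the groups touched without overlap, and it was not called (log2 fold change -0.31, SE 0.16, adjusted p = 0.34). GSTU7, GSTU10, GSTU28 and the phi gene GSTF4 lay between 0.319 and 2.16 CPM in every library, with adjusted p between 0.68 and 0.86. GSTU7 shares 636 bases with AT2G08340, and GSTF4 shares 1014 with AT1G02952, both on the opposite strand. Over all libraries GSTU7 had 89 counts and AT2G08340 81, while GSTF4 had 96 and AT1G02952 63. Reads of these overlapping pairs cannot be told apart. Of the 41 genes, 12 overlap another annotated gene, 9 of them on the opposite strand.

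The phi gene GSTF8 (AT2G47730) encodes a plastid enzyme and is a widely used marker of early oxidative and chemical stress. It was the one tested member with every fbn6-1 library above every wild-type library, at 103.5, 108.5 and 96.3 CPM in fbn6-1, against 77.9, 83.1 and 88.9 CPM in wild type. Its mean was 102.8 ± 6.10 CPM in fbn6-1 and 83.3 ± 5.51 CPM in wild type, and it was not called (log2 fold change 0.30, SE 0.10, adjusted p = 0.11 with edgeR). With scaling by library size alone, which moves the median of all genes to 0.13, the log2 fold change was 0.43 and the adjusted p 0.048.

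GSTF2 (AT4G02520), a phi enzyme that binds camalexin and other indole compounds, had 14.5, 14.2 and 22.4 CPM in fbn6-1 and 20.2, 38.6 and 21.5 CPM in wild type. Wild-type replicate 3 was the highest library and mutant replicate 3 overlapped with wild type. The gene was not called (log2 fold change -0.65, SE 0.23, adjusted p = 0.14 with edgeR). It was called in the edgeR fit without the low-count filter (log2 fold change -0.66, SE 0.14, adjusted p = 2.5e-04). GSTF2 itself passes the filter, and mainly the SE changed between these fits, so that call does not show a larger difference. Without wild-type replicate 3 its log2 fold change was -0.31 (adjusted p = 0.31). The annotated span of GSTF2 shares 1442 bases with that of TOC159, a plastid import receptor gene on the opposite strand. TOC159 had between 124 and 169 CPM in the 6 libraries, so part of the GSTF2 counts could belong to it.

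GSTF6 (AT1G02930, also ERD11), which takes part in camalexin synthesis, and GSTF7 (AT1G02920) are both known for induction by pathogens and varied widely between wild-type libraries; together with GSTF12 and GSTU23 below they were picked out after their values were seen. GSTF6 had 69, 46 and 83 counts in fbn6-1 and 22, 130 and 48 in wild type. GSTF7 had 57, 38 and 70 counts in fbn6-1 and 15, 84 and 32 in wild type. In both genes wild-type replicate 3 was the highest of all 6 libraries and wild-type replicate 2 the lowest, and neither was called (log2 fold change -0.15, SE 0.49, adjusted p = 0.91 for GSTF6, and 0.20, SE 0.48, adjusted p = 0.88 for GSTF7). Without wild-type replicate 3, GSTF7 was called higher in fbn6-1 (log2 fold change 1.25, adjusted p = 0.027) and GSTF6 had a log2 fold change of 0.94 (adjusted p = 0.069). The salicylic acid markers PR1, PR2 and PR5, also chosen after values were seen, did not share one pattern. PR2 had 1.58, 0.745 and 1.14 CPM in fbn6-1 and 2.1, 5.03 and 2.99 CPM in wild type and was called lower (log2 fold change -1.48, SE 0.38, adjusted p = 0.046). PR5 had 6.38, 6.92 and 7.27 CPM in fbn6-1, all above its 3.88, 6.35 and 4.13 CPM in wild type, and was not called (log2 fold change 0.53, SE 0.21, adjusted p = 0.20). PR1 had 1, 0 and 2 counts in fbn6-1 and 0, 0 and 4 in wild type, so that wild-type replicate 3 was the highest wild-type library for PR2 and PR5 and not for PR1.

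Of the genes under the filter, GSTF12 (AT5G17220, also TT19), needed for anthocyanins to reach the vacuole, had 8, 10 and 5 counts in fbn6-1 and 2, 2 and 3 in wild type. Without the filter its log2 fold change was 1.57 with an adjusted p of 0.30. Its annotated span overlaps with that of the abundant carotenoid gene PSY over 108 bases on the opposite strand. GSTU23 (AT1G78320) had 3, 0 and 0 counts in fbn6-1 and 5, 3 and 8 in wild type, a log2 fold change of -2.39 with an adjusted p of 0.17 in the same fit.

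As a whole, the tau class took 0.0792%, 0.0796% and 0.0687% of nuclear counts in fbn6-1 and 0.0841%, 0.0827% and 0.0861% in wild type, so the mutant libraries lay below the wild-type ones. This separation rested on GSTU20 and on the denominator. Without GSTU20 the share was 0.0644%, 0.0640% and 0.0588% in fbn6-1 and 0.0614%, 0.0600% and 0.0647% in wild type, and of all counts, organelle genes included, the class took 0.0319%, 0.0316% and 0.0258% in fbn6-1 and 0.0315%, 0.0325% and 0.0346% in wild type, both with overlap. The phi class took 0.0682%, 0.0697% and 0.0668% in fbn6-1 and 0.0648%, 0.0750% and 0.0670% in wild type, where the groups overlapped. Within the tau class GSTU20 made up 17.5% ± 2.73 of the counts in fbn6-1 and 26.4% ± 1.35 in wild type, and GSTU5 21.5% ± 1.00 in fbn6-1 and 16.0% ± 1.09 in wild type (SD, n = 3 each). Within the phi class GSTF9 made up 33.3% ± 4.12 in fbn6-1 and 44.2% ± 5.14 in wild type, and GSTF8 40.1% ± 0.994 in fbn6-1 and 29.7% ± 3.11 in wild type. By counts not divided by length, GSTF8 was thus the largest phi contributor in fbn6-1 and GSTF9 in wild type. Per kilobase of exon, GSTF9 was above GSTF8 in both genotypes (69.4 against 42.9 CPM in fbn6-1, and 100.3 against 34.8 in wild type). Shares of the same total are not independent of each other.

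The genes that work on either side of the glutathione conjugation in glucosinolate synthesis were given the same test. Their list was chosen with earlier results of these data known. Of 13 such genes, all tested, 9 were called lower and 0 higher in fbn6-1, where 2.34% of all tested genes were called lower. Their median log2 fold change was -0.60, and 10 of the 13 did not overlap between the genotypes, as against 23.0% of all tested genes. At an unadjusted p under 0.05 there were 11, as against 17.8% of all tested genes. The 4 genes not called with edgeR were CYP79B2 (log2 fold change -0.01, adjusted p = 0.98), CYP79B3 (-0.60, adjusted p = 0.10), SOT16 (-0.30, adjusted p = 0.30) and UGT74C1 (-0.57, adjusted p = 0.066). For CYP79B2, CYP79B3 and SOT16 the genotypes overlapped. The count of called genes was 4 when wild-type replicate 2 or wild-type replicate 4 was left out, 3 when mutant replicate 1 or mutant replicate 3 was left out, 6 without mutant replicate 2, and 11 without wild-type replicate 3. It was 4 with scaling by library size alone.

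CYP79F1, which makes the aldoximes of aliphatic glucosinolates, had 37.6, 37.8 and 24.0 CPM in fbn6-1 and 79.5, 81.5 and 67.9 CPM in wild type. It fell by 1.20 on the log2 scale (SE 0.15, adjusted p = 5.2e-04 with edgeR). CYP83A1, which activates these aldoximes just before glutathione is added, fell by 0.94 (SE 0.12, adjusted p = 6.7e-04), and SOT17, a sulfotransferase of the last core step, fell by 1.07 (SE 0.16, adjusted p = 0.0022). GGP1, which removes glutamate from the glutathione conjugate, had 47.1, 54.4 and 46.0 CPM in fbn6-1 and 63.8, 64.9 and 72.1 CPM in wild type and fell by 0.45 (SE 0.11, adjusted p = 0.033).

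The transferases and these genes were then followed library by library. As a percentage of its wild-type mean, GSTU20 stood at 60.2, 65.8 and 40.3 in fbn6-1 replicates 1, 2 and 3, GSTF9 at 73.3, 77.2 and 57.1, and GSTF11 at 63.7, 64.6 and 24.8. All 3 were lowest in mutant replicate 3, as were 10 of the 13 glucosinolate genes, among them CYP79F1 at 49.3, 49.5 and 31.4. GSTF10, a candidate for the same step as GSTF9, ran the other way at 101.6, 118.4 and 125.2, with mutant replicate 3 the highest of its 6 libraries. Mutant replicate 3 was also the lowest library for GSTU13, GSTU17, GSTU18, GSTU19, GSTU27 and GSH1, though not for GSTU5, GSTU16, GSTF2 or GSTF8. The share of all genes with that library lowest was not counted, so the trait cannot be called particular to the glucosinolate genes.

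**Figure D5:**
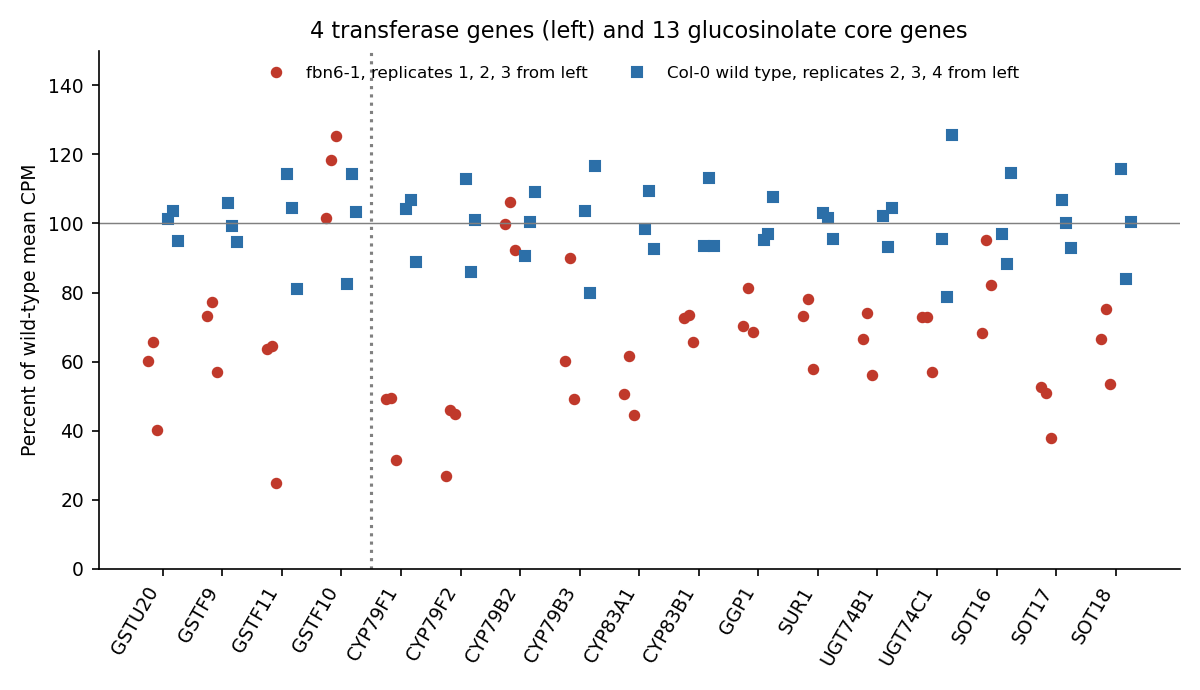
CPM of GSTU20, GSTF9, GSTF11 and GSTF10 (left of the dotted line) and of the 13 glucosinolate core genes in each library, as a percentage of each gene's wild-type mean (line at 100); red circles are fbn6-1 replicates 1, 2 and 3 from left to right and blue squares Col-0 wild-type replicates 2, 3 and 4. For GSTU20 the circles lie between 40.3 and 65.8, for GSTF10 between 101.6 and 125.2, and for most of the other genes the third circle is the lowest.

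The rest of the glutathione network is set beside all tested genes, of which 3.82% were called and 17.8% had an unadjusted p under 0.05. Of 12 genes of the other transferase classes (zeta, theta, lambda, dehydroascorbate reductase and TCHQD), 10 were tested and 0 were called in either direction with edgeR, DESeq2 or limma-voom; 3 had an unadjusted p under 0.05, and the median log2 fold change was -0.06. Of 9 genes of glutathione synthesis, reduction and breakdown, 8 were tested and 1 was called, GGP1, which also stands in the glucosinolate list. Its call was lost without any one library except wild-type replicate 3. In this list 5 genes had an unadjusted p under 0.05 (GSH1, GR1, GGT1 and GGP1 lower, PCS1 higher), and the median log2 fold change was -0.26. Of 6 transporters of glutathione and its conjugates, all tested, 0 were called by these 3 tools and 0 had an unadjusted p under 0.05, with a median of -0.02.

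A list of 12 genes of the chemical detoxification response and its regulators, the setting in which many tau genes are induced, had 10 tested, 1 called higher and 0 called lower. Of all tested genes 1.48% were called higher and 2.34% lower. The called gene was AER, an alkenal reductase that acts on reactive carbonyls. It had 27.7, 31.0 and 27.7 CPM in fbn6-1, against 17, 15.5 and 16.4 CPM in wild type, and rose by 0.82 on the log2 scale (SE 0.11, adjusted p = 0.0011 with edgeR). The median of the 10 was 0.12.

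Upstream sequences were read for 2 motifs, on both strands, from 250 bases before to 50 bases after the annotated first base of each gene. TGACG, the core bound by TGA-type bZIP factors that act in the detoxification response, occurred in 17 of the 41 genes (41.5%), 7 of them among the 19 tested, and in 23.1% of 27443 promoters of the same length. CACGTG, the G-box, occurred in 3 of the 41 (7.32%: GSTU17, GSTU18 and GSTF6) and in 7.68% of all. The 2 motifs cannot overlap by more than 2 bases. A match is a string of letters and not a mapped site.

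In the neighbours GSTU19 and GSTU20 the motif lies 29 and 28 bases after the first base of the gene and is followed by the same 5 bases, and in GSTF8 it lies 193 bases before the first base. These 25-base windows are shown because they compare the called gene with its neighbour that was not called and with GSTF8; capitals mark TGACG (RefSeq TAIR10.1; minus strand chr1:29487964-29487988 and chr1:29485347-29485371, plus strand chr2:19556123-19556147).
GSTU19: aagagtggtgTGACGtaacgactag
GSTU20: aaagctgatgTGACGtaacgggaat
GSTF8: tttgatttgaTGACGtggctggtcc
The 250 bases before the first base are shown for both called genes, GSTU20 (minus strand, chr1:29485390-29485639) and GSTF9 (plus strand, chr2:13138632-13138881); neither stretch holds a string of either motif, so nothing is in capitals.
GSTU20: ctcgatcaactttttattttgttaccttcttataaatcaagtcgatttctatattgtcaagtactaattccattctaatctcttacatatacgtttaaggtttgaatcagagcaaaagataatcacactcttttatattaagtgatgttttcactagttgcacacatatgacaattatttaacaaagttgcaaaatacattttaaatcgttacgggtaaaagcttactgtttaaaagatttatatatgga
GSTF9: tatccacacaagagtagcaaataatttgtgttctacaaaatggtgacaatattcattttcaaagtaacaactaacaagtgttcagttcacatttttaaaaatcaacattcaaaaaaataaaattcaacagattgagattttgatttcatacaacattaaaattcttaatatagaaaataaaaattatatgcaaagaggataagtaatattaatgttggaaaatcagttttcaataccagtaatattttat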

How the data were processed

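The data are raw counts per gene as the authors deposited them, in a separate file for each library. Per the submitters' processing notes, reads passed through Trimmomatic, FastQC, TopHat2 2.1.1 and featureCounts on the TAIR10 build, with settings, annotation release, multi-mapping treatment and strandedness not given in the sources used here. Nothing in the labels says that replicates were separate plants; the p-values reflect the spread of these libraries only, which may be technical.

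Groups and replicate numbers came from the labels. Genotypes were compared with edgeR 4.0.16 in R 4.3.3 (quasi-likelihood test, two-sided, TMM normalization, filterByExpr with minimum count 10 and minimum total 15). Benjamini-Hochberg adjustment ran over all 16584 tested genes, with calls at an adjusted p under 0.05. CPM are counts per 1000000 of the TMM-scaled library size, and CPM per kilobase divide by the union of annotated exons. The test was checked on simulated data.

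Annotation and sequences are from RefSeq TAIR10.1, and positions refer to that assembly only. Coding sequences (longest protein of each gene) were aligned with Biopython 1.88.

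The members and gene lists were chosen with earlier results of these data known. Named members are those called, those with an unadjusted p under 0.05, and the 8 with the highest level per kilobase; from each list, up to 3 called genes per direction by smallest adjusted p. Alternatives were RLE factors, library size only, DESeq2 1.42.0, limma-voom (limma 3.58.1), other filters, removal of organelle genes, a threshold of 0.01 on the adjusted p, the replicate number as a block, and omission of single libraries.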

Additional observations from a re-analysis of the deposited data

How the results depend on the processing

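GSTU20 was called lower under all 15 alternatives. GSTF9 kept its direction under all 15 and its call under 9. Over the 11 named members, 154 of 165 values kept direction and side of the threshold, and 1 reversed: GSTU19, at -0.077 in the report's fit and 0.0557 with library size only. The members called lower numbered 2, but 1 with library size only, with the replicate block or at an adjusted p under 0.01, 4 without the low-count filter, and 1 to 3 without 1 library. Those called higher numbered 0, but 1 with library size only and 0 to 1 without 1 library. Of the glucosinolate list 9 were called lower, but 4 with library size only, 3 with the block, 3 at an adjusted p under 0.01 and 3 to 11 without 1 library. Of the glutathione synthesis list 1 was called lower and 0 higher: 0 lower with library size only, with the block and at an adjusted p under 0.01, 1 higher without the filter, and 0 to 2 lower and 0 to 1 higher without 1 library. Of the transporters 0 to 1 were called lower without 1 library. The ratio of the phi class share (fbn6-1 over wild type) was 0.99, and 0.961 to 1.04 without 1 library. The cause of these changes was not tested.

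Over all genes, 245 were called higher and 388 lower in fbn6-1, against 508 and 195 with library size only (median log2 fold change 0.13), 73 and 118 with the replicate block, 505 and 727 without the filter, and between 84 and 463 higher and between 171 and 775 lower without 1 library. The shared replicate numbers 2 and 3 did not pair the samples: deviations of same-numbered libraries from their group means correlated at -0.03 and 0.10. The block left GSTU20 called and GSTF9 not (adjusted p = 0.079). At these depths 22 members did not pass the filter; without it 38 of the 41 were fitted.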
